A study of Homo sapiens with 15 samples.

Results

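The 31 genes described here encode enzymes that make purine and pyrimidine nucleotides. They were chosen by name as a list of the de novo, deoxynucleotide and salvage steps, and all 31 were found among the 26485 genes counted in each experiment. PSN-1 cells are an established line grown from a human pancreatic ductal adenocarcinoma. In the first experiment PSN-1 cells were transfected with siControl, siMondoA or siMLX, and in the second they received DMSO or SBI-477, a compound that the labels call a MondoA inhibitor, with no dose stated. Each of the 5 groups had 3 RNA-seq libraries taken at 72 hours from PSN-1 cells in medium with serum, and all siRNA groups, the controls included, were transfected. MondoA (gene MLXIP) senses glucose-derived metabolites and acts on promoters as a dimer with MLX, and both factors belong to the extended MYC network. The samples hold no rescue and 1 cell line, so loss of the target and other effects of an siRNA or compound cannot be told apart.

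Cells build purines on a ribose phosphate donated by phosphoribosyl pyrophosphate (PRPP), closing the ring at inosine monophosphate (IMP), from which separate branches lead to AMP and GMP. Pyrimidines are instead built as a ring first and joined to PRPP to give UMP, which is then turned into CTP. Ribonucleotide reductase makes deoxynucleotides from both, thymidylate synthase supplies the DNA-specific base, and salvage enzymes return free bases and nucleosides to the pool. Many of these genes are well-known MYC and E2F targets and are high in dividing tumour cells.

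Libraries held between 11227343 and 14731691 counts in the siRNA experiment and between 23315440 and 30480362 in the drug experiment. The lowest count of any of the 31 genes was 97 in an siRNA library and 69 in a drug library, so all 31 were tested in both. MLXIP was at 65.8 to 88.7 CPM, the count scaled to a common library size, in siControl and 15.7 to 23.4 CPM in siMondoA, and MLX was at 53 to 58.8 CPM in siControl against 7.15 to 11.9 CPM in siMLX. The summed level of 5 ductal keratin and adhesion markers was 1618 to 2788 CPM across the siRNA experiment and 1423 to 2422 CPM across the drug experiment, with none at 0 in any group. Among markers of other cell types, summed levels over 5 genes each were 92.4 to 329 CPM (fibroblast), 42 to 63.4 CPM (leukocyte), 21.2 to 38 CPM (endothelial) and 6.33 to 80.9 CPM (acinar and islet) in the siRNA libraries. The fibroblast sum was 92.4 to 179 CPM in siMondoA against 181 to 278 CPM in siControl, and the leukocyte sum 59.3 to 63.4 CPM against 42 to 51.3 CPM, and the part of these genes in the results was not tested. In the drug libraries the fibroblast sum was 22.6 to 106 CPM, the leukocyte sum 41.0 to 70.6 CPM, the endothelial sum 27.1 to 40.4 CPM and the acinar and islet sum 3.25 to 15.7 CPM. CD3E, CELA3A and INS were at 0 in every group. Nothing in the labels says that the replicates were separate cultures, so each p-value reflects spread among libraries that may not be independent. Libraries within a group differed by more than counting error, with a lowest chi-square per degree of freedom of 8.35 (SBI-477) to 21.3 (siMondoA).

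One pair of drug libraries went against its labels. TXNIP, a well-known target of MondoA, was at 145, 39.2 and 204 CPM in the libraries labelled DMSO 1, 2 and 3 and at 74.6, 121 and 41.5 CPM in those labelled SBI-477 1, 2 and 3. The library labelled DMSO 2 was the lowest of all 6 and that labelled SBI-477 2 the highest of its group. The fold changes of the authors' deposited table were given back to a median absolute difference of 1.89e-07 when this pair was exchanged and to 0.196 as labelled. The other 8 exchanges of a DMSO with an SBI-477 library left 0.117 to 0.335. TXNIP also spread widely within the knockdown groups of the siRNA experiment. It was at 158, 230 and 57.6 CPM in siMondoA 1, 2 and 3. In siMLX 1, 2 and 3 it was at 172, 511 and 93.3 CPM. Libraries keep their labels below, and the calls in the drug experiment are given as labelled and for replicates 1 and 3 alone.

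The promoter of 1 gene pair is shown here because PPAT and PAICS, which catalyse the opening and a middle step of purine synthesis, stand head to head on chromosome 4. Their GENCODE v29 starts are 125 bases apart on GRCh38, with PPAT at chr4:56393362-56435615 on the minus strand and PAICS at chr4:56435741-56464579 on the plus strand. Their RefSeq promoter windows (250 bases before to 50 after a start, GRCh38.p14) share 236 bases. The PAICS window and those of GMPS, the gene that rose with both siRNAs, and RRM2, which rose most in drug replicates 1 and 3, are shown in lower case, with any match to a searched motif in capitals. The windows lie at chr4:56435502-56435801, chr3:155870400-155870699 and chr2:10122489-10122788, all on the plus strand.
PAICS: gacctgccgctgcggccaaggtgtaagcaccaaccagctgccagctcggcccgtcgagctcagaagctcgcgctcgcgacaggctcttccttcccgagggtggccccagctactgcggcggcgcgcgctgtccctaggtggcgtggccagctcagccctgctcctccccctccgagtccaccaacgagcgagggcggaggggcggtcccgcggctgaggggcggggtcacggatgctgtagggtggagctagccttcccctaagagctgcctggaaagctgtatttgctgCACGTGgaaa
GMPS: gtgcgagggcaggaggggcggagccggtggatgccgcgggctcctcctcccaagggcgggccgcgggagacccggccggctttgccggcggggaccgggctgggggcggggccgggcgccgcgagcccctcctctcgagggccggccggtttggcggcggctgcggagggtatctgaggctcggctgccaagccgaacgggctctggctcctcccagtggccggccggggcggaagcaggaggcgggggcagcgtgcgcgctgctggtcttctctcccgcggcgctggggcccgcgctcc
RRM2: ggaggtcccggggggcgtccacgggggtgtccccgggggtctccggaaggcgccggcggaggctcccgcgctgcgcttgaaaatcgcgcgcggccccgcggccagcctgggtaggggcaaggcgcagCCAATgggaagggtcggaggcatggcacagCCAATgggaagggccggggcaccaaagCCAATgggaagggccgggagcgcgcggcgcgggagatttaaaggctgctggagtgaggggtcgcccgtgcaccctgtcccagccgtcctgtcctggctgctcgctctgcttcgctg

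The capitals mark an E-box (CACGTG, the letters that MYC and its network bind) at bases 291 to 296 of the PAICS window, 40 bases after its start, and 3 CCAAT boxes in the RRM2 window. The GMPS window held none of the motifs searched. Windows of 28 of the 31 genes were in the RefSeq table, 41 windows in all, and both strands were read. CACGTG stood in 7 of the 41 windows (17.1%), those of ATIC, DCK, DCTPP1, DHODH, NME1, PAICS and PPAT, and in 7.26% of all 35116 windows. The paired E-box of the carbohydrate response element was in none of the 41 and in 0.0228% of all windows. The E2F letters TTTNGCGC were in 4.88% of the 41 (DCK and GART) and 1.79% of all, and TTTCCCGC in 4.88% (PRPS2 and TYMS) and 1.63%. The ATF4 letters TGATGNAA were in none of the 41 and 3.62% of all, and CCAAT was in 29.3% of the 41 and 34.6% of all. CCAAT can overlap other motifs, windows of 1 gene can overlap each other, and PPAT and PAICS hold the same CACGTG at the same bases, counted once for each, so these shares are descriptions.

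The question for siMondoA and siControl was how nucleotide synthesis genes stood after the MondoA knockdown. Of the 31 genes, GMPS rose and CTPS2, APRT and RRM2B fell, by edgeR's quasi-likelihood test with a Benjamini-Hochberg adjusted p under 0.05 over all genes. In bulk RNA, fewer cells that express a gene and less of its RNA per cell cannot be told apart. Those 4 called genes (12.9% of the 31) stand beside 27.2% of all 13001 genes tested. The 1 that rose compares with 14.2% of all genes and the 3 that fell with 12.9%. The median log2 fold change of the 31 was -0.18, against 0.00 over all genes, and 23 of the 31 were below 0, against 49.6% of all genes. In single libraries, 11 of the 31 were lower in every siMondoA library than in any siControl library (22.8% of all genes) and 2 were higher (24.4% of all genes).

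**Figure D1:**
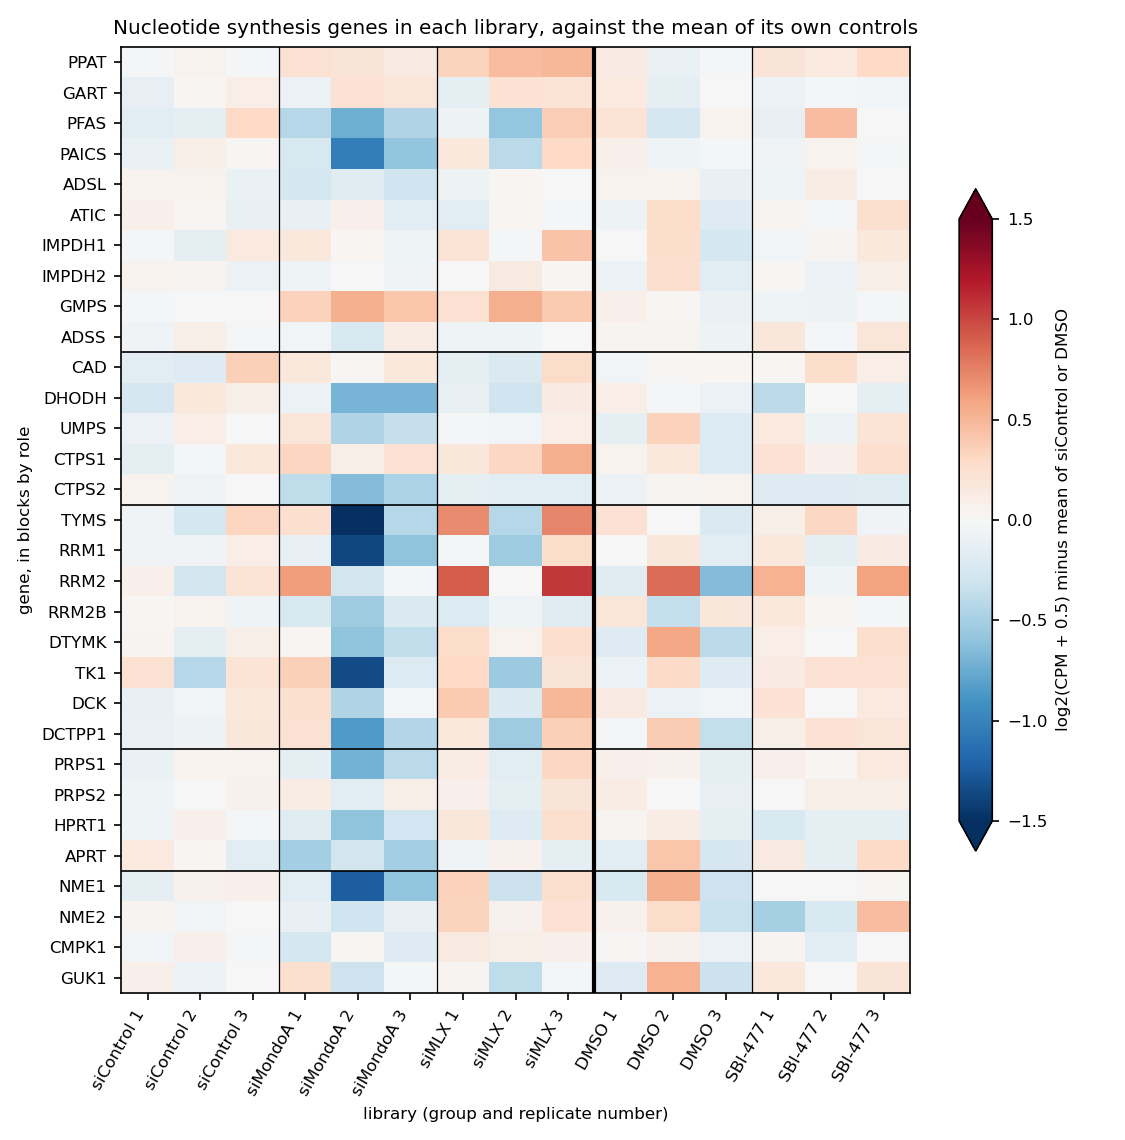
Heat map of log2(CPM + 0.5) of each of the 31 genes (rows, in blocks by role) in each of the 15 libraries (columns), minus the mean of siControl or DMSO. GMPS is red in all siMondoA and siMLX libraries, and siMondoA 2 holds the deepest blue in the block of deoxynucleotide genes.

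Among the 10 de novo purine genes, GMPS rose and none fell, while PAICS and PFAS were lower in every siMondoA library without passing. GMPS (chr3:155870536-155944026, plus strand), GMP synthetase, was at 125, 127 and 127 CPM in siControl against 160.2, 183 and 169 CPM in siMondoA. All siMondoA libraries were above all siControl libraries, with a log2 fold change of 0.44 ± 0.11 (SE, edgeR adjusted p = 0.0150). PAICS, which carries out a carboxylation and a ligation in the middle of the pathway, was at 433, 495 and 471 CPM in siControl against 393, 226 and 308 CPM in siMondoA. The groups did not overlap, with siMondoA 2 the lowest, but the change of -0.59 ± 0.21 did not pass (edgeR adjusted p = 0.0611). PFAS, an earlier, glutamine-using step, was at 57.1, 58.4 and 78.6 CPM and then at 47.4, 38.3 and 46.6 CPM (-0.55 ± 0.22, edgeR adjusted p = 0.0853). Again no siMondoA library reached the lowest siControl library. ADSL, the lyase shared by the IMP and AMP branches, gave -0.25 ± 0.09 (edgeR adjusted p = 0.0676).

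PPAT, the committing enzyme of the pathway, was higher in every siMondoA library (78.6, 76.7 and 73.7 CPM) than in siControl (65.9, 69.5 and 66.4 CPM). Its log2 fold change of 0.18 ± 0.09 did not pass (edgeR adjusted p = 0.164). So the 2 genes of the shared promoter lay on opposite sides of their controls, PPAT above and PAICS below, and the difference between their changes was not tested. GART, ATIC, IMPDH1, IMPDH2 and ADSS, which hold other ring steps, the GMP branch point and the AMP branch point, had overlapping groups. In the authors' deposited table, fitted with a term for the replicate number, PAICS (-0.63, adjusted p = 0.00581) and PFAS (-0.55, adjusted p = 0.0147) were lower past the same threshold. GMPS was higher in the authors' deposited table (0.43, adjusted p = 0.0225).

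**Figure D2:**
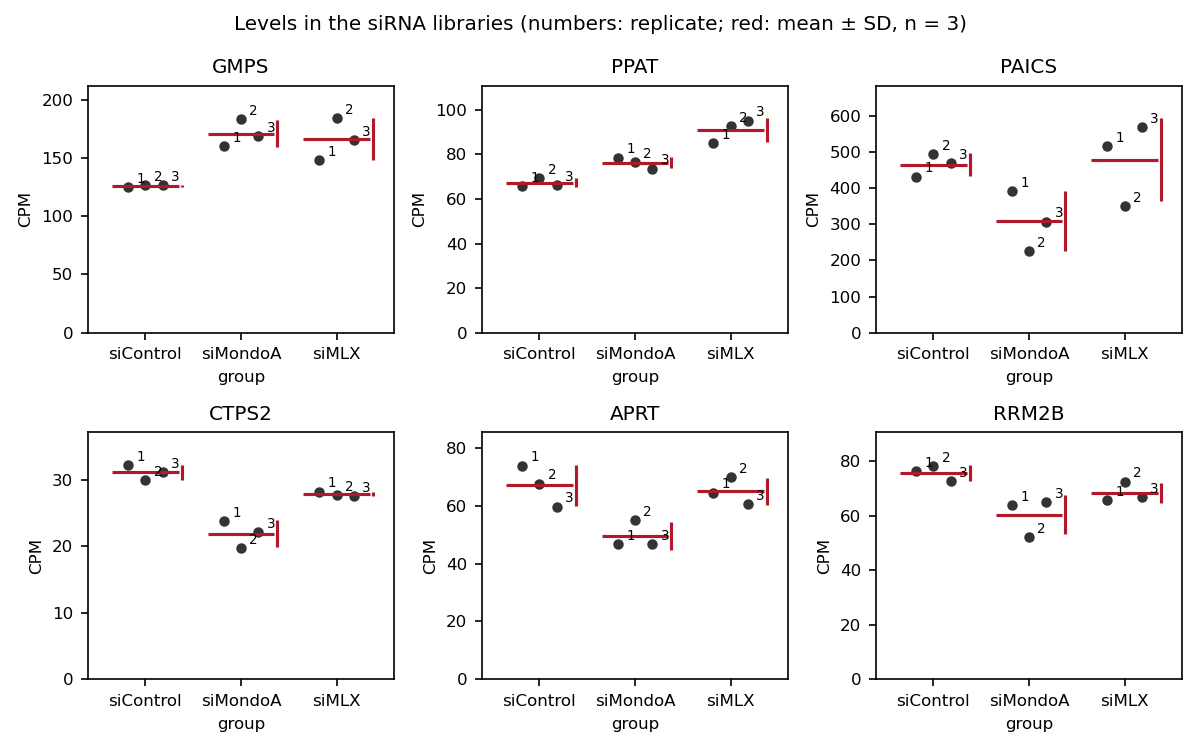
CPM of 6 genes in each siRNA library (points, numbered by replicate), with the group mean (red line) and SD (red bar, n = 3). GMPS was above siControl with both siRNAs, CTPS2, APRT and RRM2B were lowest in siMondoA, and PAICS ranged from 226 to 393 CPM in siMondoA.

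In the pyrimidine pathway a fall was called for CTPS2 alone of 5 genes. CTPS2 (chrX:16588003-16712936, minus strand), the less abundant of the CTP synthetases, was at 32.3, 30 and 31.2 CPM in siControl against 23.8, 19.7 and 22.2 CPM in siMondoA. The groups did not overlap, with a change of -0.51 ± 0.11 (edgeR adjusted p = 0.0109). Its paralog CTPS1 was at 77.3, 84.7 and 95.1 CPM in siControl against 107, 90.6 and 99.8 CPM in siMondoA, with overlapping groups. DHODH, the mitochondrial step, was at 14.8, 19.9 and 18.9 CPM and then 16.7, 10.7 and 10.7 CPM (-0.49 ± 0.21, edgeR adjusted p = 0.1002). Its siMondoA 1 library lay inside the control range. CAD, which carries the opening steps, and UMPS, which makes UMP, also overlapped between groups.

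The 8 deoxynucleotide genes had a median log2 fold change of -0.30 and 7 of them were below 0, but a fall was called only for RRM2B. RRM2B, the ribonucleotide reductase small subunit that p53 is known to induce, was at 76.4, 78.3 and 72.6 CPM in siControl against 64.0, 52.0 and 64.9 CPM in siMondoA. The groups did not overlap, and the change of -0.33 ± 0.11 was just past the threshold (edgeR adjusted p = 0.0499). RRM1, the large catalytic subunit, was at 169.6, 170.2 and 189 CPM and then at 162, 68.0 and 116 CPM (-0.61 ± 0.28, edgeR adjusted p = 0.119). TYMS, thymidylate synthase, was at 28.4, 7.71 and 17.6 CPM in siMondoA against 22.9, 19.7 and 29.9 CPM in siControl. TYMS had the largest spread of the 31 genes within siMondoA, with an SD of 0.94 on the log2 scale. TK1, DTYMK, DCTPP1 and DCK, which salvage thymidine, phosphorylate dTMP, hydrolyse dCTP and phosphorylate deoxycytidine, had overlapping groups.

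APRT (chr16:88809339-88811944, minus strand), which salvages adenine, was the other gene that fell. It was at 73.9, 67.7 and 59.7 CPM in siControl against 46.7, 55.1 and 46.7 CPM in siMondoA (-0.44 ± 0.12, edgeR adjusted p = 0.0238). No siMondoA library reached the lowest siControl library. HPRT1, which salvages hypoxanthine and guanine, gave -0.35 ± 0.14 (edgeR adjusted p = 0.0941), and PRPS1, a PRPP synthetase, gave -0.41 ± 0.16 (edgeR adjusted p = 0.0788), both without overlap. PRPS2, its paralog, overlapped at 108, 113 and 118 CPM against 122, 101 and 120.2 CPM. The nucleoside diphosphate kinase NME1 was at 154, 176 and 178 CPM in siControl against 151, 71.5 and 112 CPM in siMondoA (-0.60 ± 0.25, edgeR adjusted p = 0.0894). Of the other kinases NME2 was lower without overlap (-0.17 ± 0.11, edgeR adjusted p = 0.248), and CMPK1 and GUK1 overlapped.

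Which of the 31 passed depended on single libraries. The count of 4 became 9 without siMondoA 1 (29.4% of all genes) and 9 without siMLX 2 (32.9%). It was 1 without siControl 1 (14.2%) or without siControl 2 (13.2%), and 2 without siMondoA 3 (14.7%). With siMondoA 2 and siMLX 2 both left out, an alternative chosen after seeing the data, it was 5 (28.8% of all genes). GMPS was higher and PAICS, ADSL, CTPS2 and APRT lower. With the replicate as a block, a term the authors' fit also held, the count was 9 (35% of all genes). GMPS was higher, and 8 were lower (17% of all genes), namely PFAS, PAICS, CTPS2, RRM1, RRM2B, PRPS1, APRT and NME1. The labels state no such pairing. CTPS2 kept its call in 15 of 15 alternative settings, GMPS in 13, APRT in 11 and RRM2B in 4.

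The siMLX group put the same question for the partner of MondoA, against the same siControl libraries. PPAT and GMPS rose and none of the 31 fell, which is 6.45% of the list beside 8.41% of all genes. Rises were 3.72% and falls 4.69% of all genes. The median log2 fold change was 0.05, against 0.02 over all genes, with 12 of 31 below 0. Groups did not overlap for 5 genes that were higher in siMLX (16.5% of all genes) and 2 that were lower (16.9%).

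PPAT was at 85.1, 92.8 and 95.2 CPM in siMLX against 65.9 to 69.5 CPM in siControl, a change of 0.44 ± 0.09 (edgeR adjusted p = 0.0197). PAICS, across the shared promoter, was at 518, 350.1 and 571 CPM, on both sides of its controls (0.04 ± 0.21). GMPS was at 148, 184 and 165 CPM against 125 to 127 CPM, a change of 0.40 ± 0.11 (edgeR adjusted p = 0.0471). Its calls with siMondoA and siMLX used the same siControl libraries, so they are not independent. In siControl GMPS had the smallest spread of the 31 genes, with an SD of 0.0102 on the log2 scale. CTPS1 was above all controls at 96.5, 106 and 125 CPM but did not pass (0.35 ± 0.13, edgeR adjusted p = 0.111). CTPS2, at 27.6 to 28.2 CPM, and RRM2B, at 65.6 to 72.5 CPM, lay just below their controls.

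RRM2, the small subunit made in S phase (chr2:10120698-10131419, plus strand), was at 176, 93.5 and 196 CPM in siMLX and at 98.6, 76.8 and 107 CPM in siControl. siMLX 2 alone fell inside the control range, and the change of 0.72 ± 0.29 did not pass (edgeR adjusted p = 0.142). The labels do not state a pairing, and replicate numbers were taken as pairing siMLX with siControl from correlations in these same data (0.268, 0.188 and 0.359). With the replicate as a block RRM2 was called as well (0.67 ± 0.17, edgeR adjusted p = 0.0331), giving 3 of 31 beside 14% of all genes. RRM2 was also higher in the authors' deposited table (0.66, adjusted p = 0.000875), as were PPAT (0.43, adjusted p = 0.0322) and GMPS (0.39, adjusted p = 0.0483). The count of 2 became 0 without siControl 1 (1.93% of all genes), siControl 2 (2.28%), siControl 3 (3.76%) or siMLX 3 (3.12%), and 1 without siMondoA 1 (9.03%) or siMondoA 3 (5.55%). With siMLX 2 and siMondoA 2 both left out, again after seeing the data, it was 3, PPAT, TYMS and RRM2 (12.2% of all genes). PPAT kept its call in 11 of 15 settings and GMPS in 4.

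Compared directly, siMondoA was below siMLX for 26 of the 31 genes, with a median log2 difference of -0.27 against 0.00 over all genes. Only NME2, a nucleoside diphosphate kinase, passed, at 150.2, 132 and 150.5 CPM in siMondoA and 204, 169 and 189 CPM in siMLX (-0.38 ± 0.11, edgeR adjusted p = 0.0414). That is 3.23% of the list beside 12.9% of all genes, or 6.21% in the lower direction. In 8 genes every siMondoA library was below every siMLX library (15.3% of all genes), namely PPAT, ADSL, CTPS2, RRM2B, DTYMK, APRT, NME2 and CMPK1, and in none was it above (14.9%). All 8 deoxynucleotide genes were below 0, with a median of -0.41. PAICS differed by -0.63 ± 0.21 (edgeR adjusted p = 0.0743) and NME1 by -0.72 ± 0.25 (edgeR adjusted p = 0.0791).

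This difference depended on the libraries and the tool used. In an alternative chosen after seeing the data, siMondoA 2 and siMLX 2 were both left out. They were the lowest of their groups for 21 and 20 of the 31 genes, so the choice itself can narrow the spread. There 10 of 31 were lower in siMondoA and none higher (19.6% of all genes were called, and 8.87% of all genes were lower). The 10 were PFAS, PAICS, TYMS, RRM2, PRPS1, HPRT1, APRT, NME1, NME2 and CMPK1. Among them PAICS differed by -0.64 ± 0.14 (edgeR adjusted p = 0.00871) and NME1 by -0.66 ± 0.15 (edgeR adjusted p = 0.0104), so their sizes moved little and their errors were smaller. The count was 9 without siMondoA 1 (16.2% of all genes), 8 without siMLX 2 (22.5%) and 6 by DESeq2 (16.3%). It was 0 without siControl 1 (10.2%), siControl 2 (9.16%), siControl 3 (9.89%), siMondoA 3 (5.69%), siMLX 1 (5.56%) or siMLX 3 (5.08%).

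**Figure D3:**
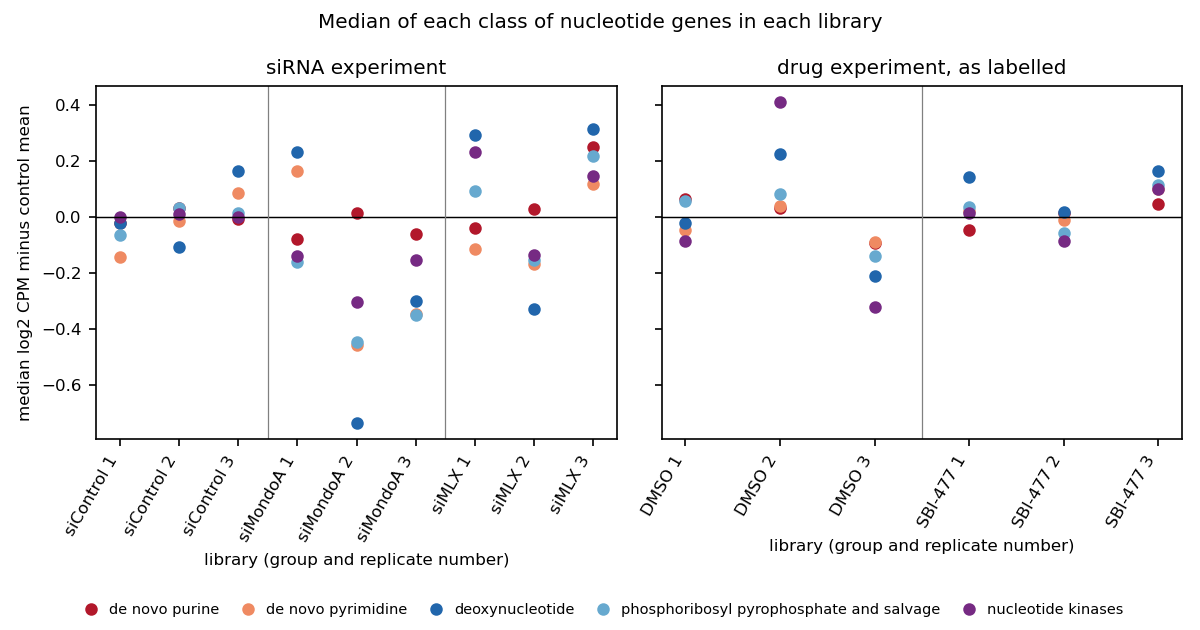
Median over each class of genes (colours) of log2 CPM minus the control mean, in each siRNA library (left) and drug library as labelled (right). The deoxynucleotide median was 0.23, -0.73 and -0.30 in siMondoA 1, 2 and 3 and 0.29, -0.33 and 0.32 in siMLX 1, 2 and 3.

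The spread within a group was itself patterned by role. siMondoA 2 was the lowest of its group for 21 of the 31 genes (38.6% of all genes), and siMLX 2 for 20 (39.5% of all genes). The deoxynucleotide class had the lowest median of the 5 classes in both, with a median against siControl of -0.73 in siMondoA 2 and -0.33 in siMLX 2, while the de novo purine median was 0.01 and 0.03. The same libraries stood apart in other lists. The median of 30 E2F targets was 0.49, -0.61 and -0.14 in siMondoA 1, 2 and 3 and 0.24, -0.21 and 0.44 in siMLX 1, 2 and 3. ATF4, the transcription factor of the integrated stress response, was at 568, 836 and 627 CPM in siMondoA and at 320.3, 696 and 336 CPM in siMLX, and at 254 to 320.3 CPM in siControl. Its part in the values of the deoxynucleotide genes was not tested.

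In the drug experiment as labelled, none of the 31 genes passed, and none of 14023 genes did (0% of all genes) by edgeR's quasi-likelihood test. At an unadjusted p under 0.05 there were 0 of the 31 and 409 of all genes, and DESeq2 also called 0 of the 31. All SBI-477 libraries were above all DMSO libraries for PPAT, as for 4.76% of all genes, and below them for CTPS2, as for 4.5%. PPAT was at 69.5, 59.4 and 62.2 CPM in DMSO against 73.0, 70.4 and 78.2 CPM in SBI-477 (0.21 ± 0.11, edgeR adjusted p = 0.9999). CTPS2 was at 32.4, 35.4 and 35.7 CPM in DMSO against 30.1, 29.9 and 30.4 CPM in SBI-477. With the pair of replicates 2 exchanged, the groups overlap for both genes.

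In replicates 1 and 3 alone, 6 of the 31 rose and none fell, which is 19.4% of the list beside 18.1% of all genes. Rises were 9.07% of all genes and falls 9.02%. Both SBI-477 libraries were above both DMSO libraries for 16 of the 31 (31.5% of all genes) and below them for 6 (32.4% of all genes). RRM2 was at 238 and 173 CPM in DMSO 1 and 3 and at 389 and 411 CPM in SBI-477 1 and 3, a change of 0.96 ± 0.13 (edgeR adjusted p = 0.00262). The left-out libraries were the other way round, at 483 CPM in DMSO 2 against 259 CPM in SBI-477 2. Its partner RRM1 was at 284 and 256 CPM and then 320.1 and 312 CPM (0.23 ± 0.09, edgeR adjusted p = 0.0948).

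The other rises were in the kinases DTYMK, GUK1 and TK1, the salvage enzyme APRT and the UMP-making enzyme UMPS. DTYMK, thymidylate kinase, went from 78.2 and 68.2 CPM to 95.7 and 106 CPM (0.47 ± 0.10, edgeR adjusted p = 0.0149). GUK1, guanylate kinase, went from 126 and 115 CPM to 160.3 and 165 CPM (0.43 ± 0.09, edgeR adjusted p = 0.0109). APRT went from 74.1 and 69.9 CPM to 91.4 and 101 CPM (0.42 ± 0.09, edgeR adjusted p = 0.0153). The last of the 6 were UMPS, at 0.35 ± 0.09 (edgeR adjusted p = 0.0221), and TK1, at 0.32 ± 0.09 (edgeR adjusted p = 0.0395). None of the 10 de novo purine genes passed, and GMPS, which rose with both siRNAs, was at 179.8 and 159 CPM under DMSO in these replicates against 164 and 169 CPM under SBI-477 (-0.02 ± 0.09).

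**Figure D4:**
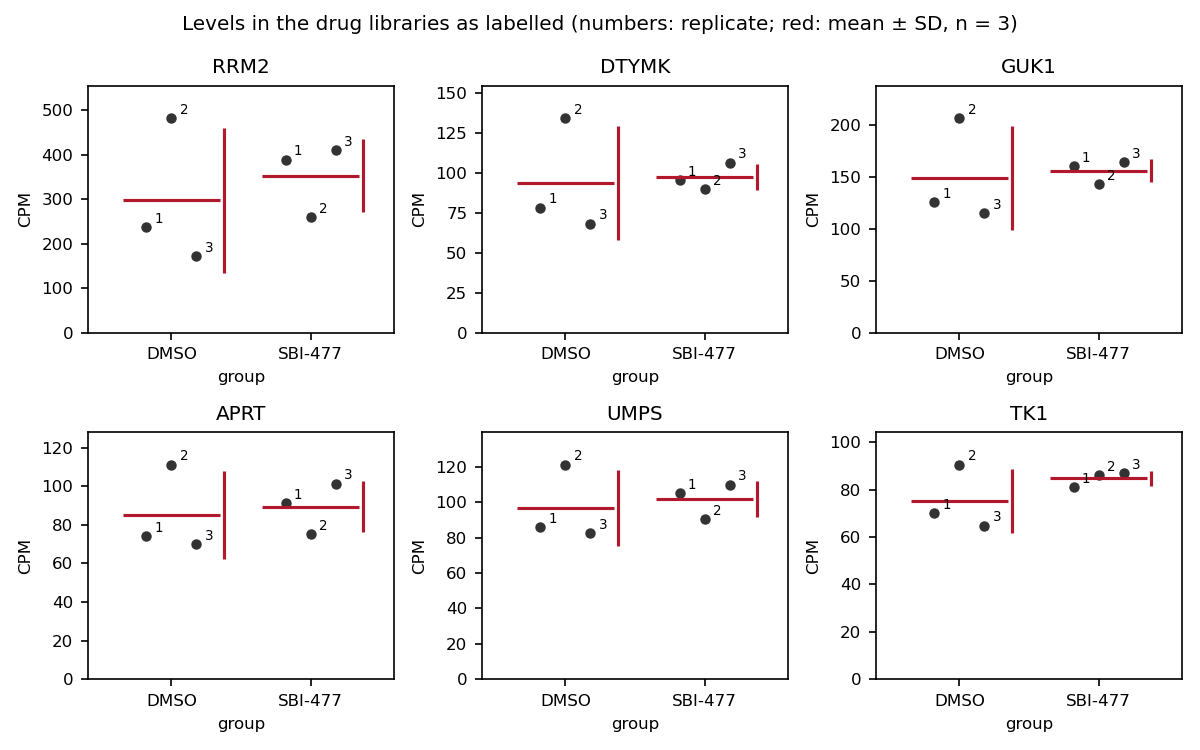
CPM of the 6 genes that rose in drug replicates 1 and 3, in each drug library as labelled (points, numbered by replicate), with the group mean (red line) and SD (red bar, n = 3). The library labelled DMSO 2 is the highest DMSO library in each panel.

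The authors' deposited table, which corresponds to the exchanged pair, held 7 of the 31 genes higher (10.6% of its genes with an adjusted p) and 1 lower (9.51%). RRM2 had the smallest adjusted p of the 31 in the authors' deposited table (0.95, adjusted p = 2.86e-08). The others higher in the authors' deposited table were APRT (0.48), DTYMK (0.52), GUK1 (0.48), UMPS (0.39), ATIC (0.30) and RRM1 (0.27), as log2 fold changes. PFAS was lower in the authors' deposited table (-0.36, adjusted p = 0.0349).

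**Figure D5:**
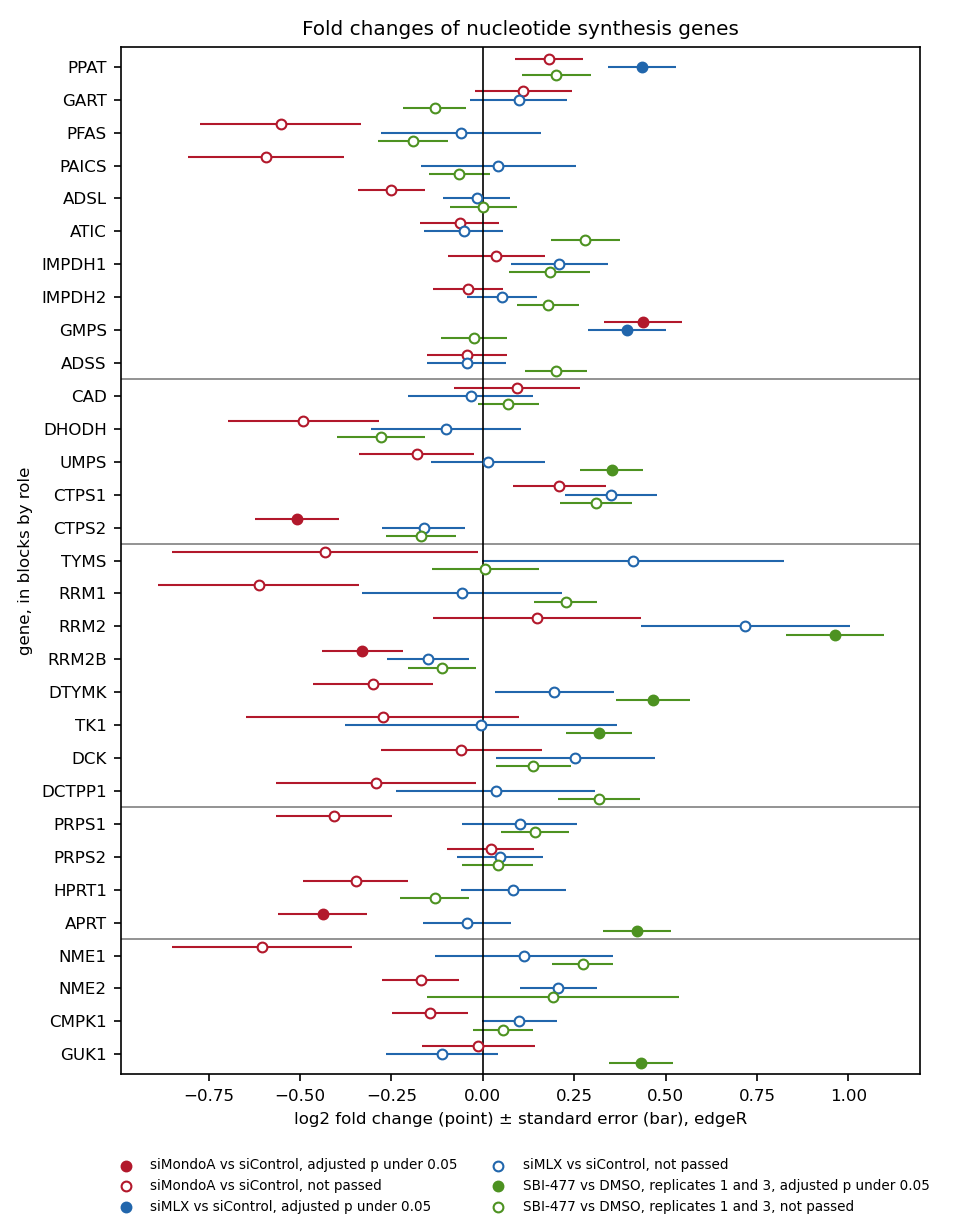
edgeR log2 fold change (points) with its standard error (bars) of each of the 31 genes for siMondoA and siMLX against siControl and for SBI-477 against DMSO in replicates 1 and 3. Filled points have an adjusted p under 0.05; GMPS is filled for both siRNAs, and the green points of RRM2, DTYMK, TK1, APRT, UMPS and GUK1 are filled on the higher side.

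The difference between the SBI-477 effect and the siMondoA effect was tested as an interaction over all 15 libraries. As labelled, none of the 31 passed by edgeR (7.67% of all genes did). DESeq2 called 1, GMPS (-0.49 ± 0.14, DESeq2 adjusted p = 0.00981), beside 13% of all genes. With drug replicates 1 and 3, APRT (0.88 ± 0.17, edgeR adjusted p = 0.0101) and DTYMK (0.79 ± 0.23, edgeR adjusted p = 0.0455) had a higher SBI-477 effect than siMondoA effect (11.5% of all genes were called). APRT thus fell with siMondoA and rose with SBI-477 in these replicates, and the effects differed by the test of the difference itself. With siMondoA 2, siMLX 2, DMSO 2 and SBI-477 2 all left out, again after seeing the data, 4 passed, all higher (20.4% of all genes). The 4 were APRT, DTYMK, RRM1 and NME1. The edgeR count was 3 without siMondoA 1 (12% of all genes), 2 without DMSO 2 (9.76%), 1 without siMLX 2 (12%) and 1 without DMSO 3 (6.62%).

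Levels were compared between genes per kilobase of merged exon. IMPDH2, the main IMP dehydrogenase, was the highest of the 31 in siControl at 127 ± 6.67 CPM per kb (SD, n = 3). CMPK1 followed at 75.9 ± 3.32 and HPRT1 at 69.6 ± 3.61 CPM per kb, with the lowest CMPK1 library just above the highest HPRT1 library. The lowest were CTPS2 at 5.65 and DHODH at 2.58 CPM per kb. IMPDH2 was also the highest in DMSO at 240.6 ± 37.3 CPM per kb.

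NME2 differed between the experiments far beyond any treatment. Normalised within each table, it was at 158 to 168 CPM in siControl against 2.72 to 4.39 CPM in DMSO, with raw counts of 69 to 115 in the drug libraries. Its neighbour NME1 was at 154 to 178 CPM in siControl against 109.6 to 198 CPM in DMSO. NME2 shares 25.2% of its 25-base words with other genes, 22.9% with the NME1-NME2 readthrough gene, whose count was 11 to 39 in siRNA libraries and 0 in every drug library. Of 5254 genes at 50 CPM or more in either control group, 23 were at least 16-fold higher in siControl than in DMSO and 9 the other way. The cause was not tested, and NME2 levels are not compared further across experiments. The interaction test of the SBI-477 and siMondoA effects did count NME2 among its 31 genes.

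Other members also share 25-base words with other genes, read on both strands. TYMS shares 36.6% of its words with ENOSF1 and DCTPP1 37.1% with ZNF771, each of which overlaps it on the other strand. RRM2 shares 19.9% with AC007240.1, which overlaps it on the same strand. For such overlapping genes the doubt is which gene a read was counted for. ADSL shares 24.4%, IMPDH1 23.2% and PAICS 19.8% of theirs with other genes, for PAICS its pseudogenes among them. Strand use in counting is not given in the sources at hand, so values of TYMS and DCTPP1 are uncertain. APRT, TK1 and GUK1 share none, and CTPS2 shares 0.985%.

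Genes that feed or drain these pathways were read from lists, beside 14.2% of all genes that rose and 12.9% that fell with siMondoA. In drug replicates 1 and 3 those shares were 9.07% and 9.02%, and as labelled no gene of any list passed, as none of all genes did. With siMondoA, 5 of 37 tested genes of salvage and interconversion rose and 3 fell, shares near or below those of all genes. UPP1, uridine phosphorylase, was at 16.4, 12.2 and 13.0 CPM in siControl against 42.2, 85.2 and 67.3 CPM in siMondoA (2.23 ± 0.28, edgeR adjusted p = 0.000845). Cytidine deaminase CDA rose by 1.34 ± 0.28 and thymidine phosphorylase TYMP by 1.25 ± 0.29, while mitochondrial thymidine kinase TK2 fell by 0.68 on the log2 scale. UPP1 also rose with siMLX, at 30.7, 48.7 and 28.4 CPM (1.38 ± 0.28, edgeR adjusted p = 0.0156), the 1 gene of 37 that did. In drug replicates 1 and 3, 8 of 38 rose and none fell, with UPP1 at 0.57 ± 0.10 and CDA at 0.59 ± 0.14.

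The suppliers of one-carbon units and amide nitrogen were read in the same way. With siMondoA, of 12 tested folate genes 3 rose and 1 fell, and of 8 tested glutamine and aspartate genes 4 rose and none fell. MTHFD2, a mitochondrial folate enzyme that provides formate, was at 154, 215 and 188 CPM in siControl against 445, 1264 and 843 CPM in siMondoA (2.19 ± 0.48, edgeR adjusted p = 0.0101). ASNS, asparagine synthetase, was at 20.5 to 29 CPM and then 87.7, 467 and 285 CPM (3.51 ± 1.06, edgeR adjusted p = 0.0332). Both are known ATF4 targets, and ATF4 was highest in siMondoA 2, where they were highest too. The part of ATF4 in their values was not tested. In siMLX, ASNS was at 16.5, 403 and 29.4 CPM, so siMLX 2 alone was high and the change did not pass (2.61 ± 1.03, edgeR adjusted p = 0.137). In drug replicates 1 and 3 ASNS fell by 0.50 on the log2 scale and SLC38A2, a glutamine carrier, by 0.48.

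Cell cycle and further lists were read beside the same 14.2% of all genes that rose and 12.9% that fell with siMondoA. Of 5 proliferation markers 3 rose and none fell, namely MKI67 (0.77 ± 0.20), CCNB1 (0.43 ± 0.13) and BUB1 (0.61 ± 0.13), which were higher in every siMondoA library than in any siControl library. The median of the 5 was 0.71, 0.37 and 0.24 above the siControl mean in siMondoA 1, 2 and 3, while the deoxynucleotide median was 0.23, -0.73 and -0.30. Of 30 E2F targets 5 rose and 3 fell, shares near those of all genes, with MCM6 at 0.51 ± 0.12 and GINS1 at -1.30 ± 0.38. Of 14 p53 targets 6 rose and 3 fell, among them CDKN1A, the p21 cell cycle inhibitor, at 2.34 ± 0.40 and TP53INP1 at -2.32 ± 0.44, while RRM2B fell. Of 10 ribose phosphate genes RBKS rose (0.88 ± 0.24) and PGD fell (-0.56 ± 0.17). In drug replicates 1 and 3, 7 of 30 E2F targets rose and none fell (9.07% and 9.02% of all genes), with CCNE1 at 0.81 ± 0.09. Of the 5 proliferation markers 2 rose there, CCNA2 at 0.43 ± 0.10 and CCNB1 at 0.34 ± 0.09. There 3 of 10 ribose phosphate genes rose and none fell, with TALDO1 at 0.67 ± 0.09.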

How the data were processed

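Per the labels' protocols, RNA from PSN-1 cells treated for 72 hours was extracted, 500 ng entered Kapa library preparation, and paired reads of 25 bases were sequenced on a HiSeq instrument. The submitters' processing notes list HTSeq 0.6.1, TopHat2 2.1.0, bcl2fastq 1.8.4 and an edgeR of unstated version, with hg38 and mm10 as builds. Strand handling is not given in the sources at hand. Per the file headers, the authors deposited 1 table per experiment with a raw count per gene and library and, for each of their own comparisons, log2 fold changes, p-values and adjusted p-values. No column belonged to a library outside this series.

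Counts were tested in R 4.3.3 with edgeR 4.0.16 (filterByExpr, TMM, quasi-likelihood test, Benjamini-Hochberg over all genes, threshold 0.05), with the 9 siRNA libraries in one fit, the 6 drug libraries in another and all 15 for the interaction. DESeq2 1.42.0 was an alternative. The scripts were tested on simulated data. CPM use TMM factors, and class medians per library use log2 CPM with a prior count of 2. A "groups do not overlap" count compares CPM of single libraries over the genes tested. The authors' siRNA columns were given back by DESeq2 with a replicate term to 2.27e-13 (siMondoA) and 2.21e-13 (siMLX), a median absolute difference on the log2 scale over genes with a mean normalised count above 20. The drug columns were given back without that term. Deviations of same-numbered libraries from their group means correlated at 0.268, 0.188 and 0.359 between siControl and siMLX, so these were taken as paired. Between siControl and siMondoA they correlated at 0.136, 0.0881 and 0.0084, and these were not taken as paired. The labels state no pairing, and the correlations come from the same data that were tested, so they cannot settle it.

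The 31 members and the other lists were chosen with earlier results of these data known, and support no claim by their choice. Named genes are members that were called, 2 to 4 per class with the smallest adjusted p or the highest level, and up to 4 called genes per other list. Positions come from GENCODE v29 on GRCh38 and promoter windows from RefSeq on GRCh38.p14. Figures were drawn with matplotlib 3.10.9.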

Additional observations from a re-analysis of the deposited data

Results flagged for a closer look

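NME2, a nucleoside diphosphate kinase, differed between the siRNAs in a direct test. It was lower in siMondoA than in siMLX by a log2 difference of -0.38 (edgeR adjusted p = 0.0414), below in 3 of 3 libraries, and kept this call in 5 of 15 alternative settings, with adjusted p between 0.0138 and 0.154 over them.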

How the results depend on the processing

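The number of the 31 genes past the threshold moved with the settings, and no called gene changed direction. Leaving out 1 library at a time gave 1 to 9 for siMondoA against siControl, 0 to 2 for siMLX against siControl, 0 to 9 for siMondoA against siMLX, 0 to 0 for SBI-477 against DMSO and 0 to 3 for the interaction; where a group is left with 2 libraries its spread is taken from the whole fit. The replicate block gave 9 for siMondoA against siControl (8 lower; 35% of all genes) and 8 for siMondoA against siMLX (20% of all genes), where the numbers were not taken as pairing the samples, and 0 in the drug experiment. Same-numbered siMondoA and siMLX libraries correlated at 0.534, 0.447 and -0.109, and not every library correlated best with its own number. The block added RRM2 for siMLX and changed no other call there. RLE size factors, no filter on low counts and only the 6 libraries compared each gave 1 for siMLX. For siMondoA against siMLX, no filter gave 0, the 6 libraries alone 0, DESeq2 6 and both replicates 2 left out 10. The interaction gave 1 by DESeq2, 1 in the 12 libraries compared, 2 with drug replicates 1 and 3 and 4 with all replicates 2 of the treated siRNA groups and the drug groups left out. The drug comparison gave 6 with replicates 1 and 3. The cause of these shifts was not tested. Of the 27 genes not called with siMondoA, 19 kept their sign in every setting and 10 were called in at least 1. The lowest count of a member was 69, for NME2 in the drug experiment, and for single genes counting error was not separated from the spread between libraries.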
